A study of Mus musculus with 8 samples.

Results

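The genes described here are 10 marker genes of paraxial mesoderm and of embryonic mesenchyme: Pdgfra, Twist1, Foxc1, Foxc2, Foxd1, Meox1, Tcf15, Prrx1, Prrx2 and Tbx18. They were taken by symbol from the 26608 genes listed for every library, and each symbol matched 1 row. All 10 had counts in at least 6 of the 8 libraries and passed the filter on low counts, which left 11779 genes for testing. The tissue was neural tube of FVB mouse embryos, cut by laser microdissection from cryosections at 8.5 days of gestation. It was taken just in front of neural tube closure site 1, where the tube was still open, or just behind that site, where it was closed. The dams were diabetic or normal. Crossing dam with region gave 4 groups of 2 libraries, which are named here by the numbers in their labels: 09 and 10 (normal dam, open), 11 and 12 (normal dam, closed), 13 and 14 (diabetic dam, open), 15 and 16 (diabetic dam, closed). The labels do not state how the diabetes arose, how many embryos or litters went into a library, or whether the regions were cut from shared embryos. The p-values therefore measure only the spread between these libraries, which may in part be technical.

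Paraxial mesoderm lies on both sides of the neural tube and segments into somites, the blocks that give rise to vertebrae, skeletal muscle and dermis. Mesenchyme is the loose, migratory tissue formed by somites, by the mesoderm of the head and by neural crest. Transcription factors of the forkhead, homeodomain, T-box and basic helix-loop-helix families act in these cells, together with the receptor for platelet-derived growth factor encoded by Pdgfra. Cranial neural crest also uses Pdgfra, Twist1, Foxc1 and Prrx1.

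Each library counted short tags that begin at a CATG site, the site cut by the enzyme of the SAGE method, near the 3′ end of a transcript. The expected tag of each gene is shown because it is the stretch of transcript that a level stands for. It was read as the last CATG before the end of a protein-coding transcript and the 21 bases after it, from GENCODE M21 transcripts on GRCm38, with CATG in capitals.
Pdgfra: CATGttttgttttaaaaagtgtaaa
Twist1: CATGgtaaaatgcaaatagatccgg
Foxc1: CATGtgtaatgttttctattgtcta
Foxc2: CATGgctttgtacagtagatgccat
Foxd1: CATGacctcagattgcttcttggtt
Meox1: CATGtatcagttttcccctacagca
Tcf15: CATGagccagcccctagctggacag
Prrx1: CATGaggatgctttaagctgcttgt
Prrx2: CATGgccaacagcatcgccagcctt
Tbx18: CATGcattgttgcattgttaattat
None of these 10 tags was found in a transcript of another gene. The tag shown for Pdgfra was the last one in 2 of its 7 coding transcripts, and the tag shown for Prrx1 in 1 of 3, so other tags may have been counted for these genes. The sources used here do not say which tags were counted for each gene.

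Library totals ranged from 5041586 to 16655583 counts, with 9920 to 12924 genes detected per library. Diabetic open library 13 stood apart in its marker genes. Sox2, a transcription factor of neural progenitors, was at 30.9 CPM (counts scaled to a library total of 1000000) in library 13 and at 287 to 550 CPM in the other 7. The 12 neural progenitor markers summed to 249 CPM in library 13 and to 890 to 1249 CPM elsewhere, with Nkx6-1 at 0 in all 8. The 14 endothelial markers, led by Egfl7 and Sox7, summed to 510 CPM in library 13 and to 60.4 to 184 CPM elsewhere, with Erg at 0 throughout. The 14 heart and lateral plate markers, which include Tbx18, summed to 266 CPM there and to 2.03 to 18.0 CPM elsewhere, with Gata5, Nkx2-5, Tbx5, Foxf1a and Tnnt2 at 0 throughout. The 10 primitive blood markers summed to 934 CPM in library 13, 1014 CPM in library 14, 213 CPM in library 16 and at most 63.8 CPM in the other 5, with Hbb-y and Nfe2 at 0 throughout. Xist, transcribed in female cells, was at 301 and 297 CPM in libraries 10 and 12 and at no more than 4.27 CPM in the rest. The part of these differences in the results was not tested. Levels and the main edgeR differences are therefore given with and without library 13, whereas DESeq2 and limma-voom were run on all 8 libraries only.

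The 10 genes together took up 0.0123% to 0.144% of the counts of a library. Their summed level was 123 and 371 CPM in the normal open libraries 09 and 10 and 309 and 214 CPM in the normal closed libraries 11 and 12. It was 1438 and 303 CPM in the diabetic open libraries 13 and 14 and 636 and 525 CPM in the diabetic closed libraries 15 and 16. Library 13 was far above every other library, and libraries 15 and 16 were also above all 4 normal libraries, whereas library 14 lay inside the normal range. The diabetic mean was 725 ± 495 CPM (SD, n = 4) against 255 ± 109 CPM (SD, n = 4) in normal dams, a ratio of 2.85. Without library 13 the diabetic mean was 488 ± 170 CPM (SD, n = 3) and the ratio 1.92. In bulk tissue such as this, more cells of a type and more RNA per cell cannot be told apart.

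**Figure D1:**
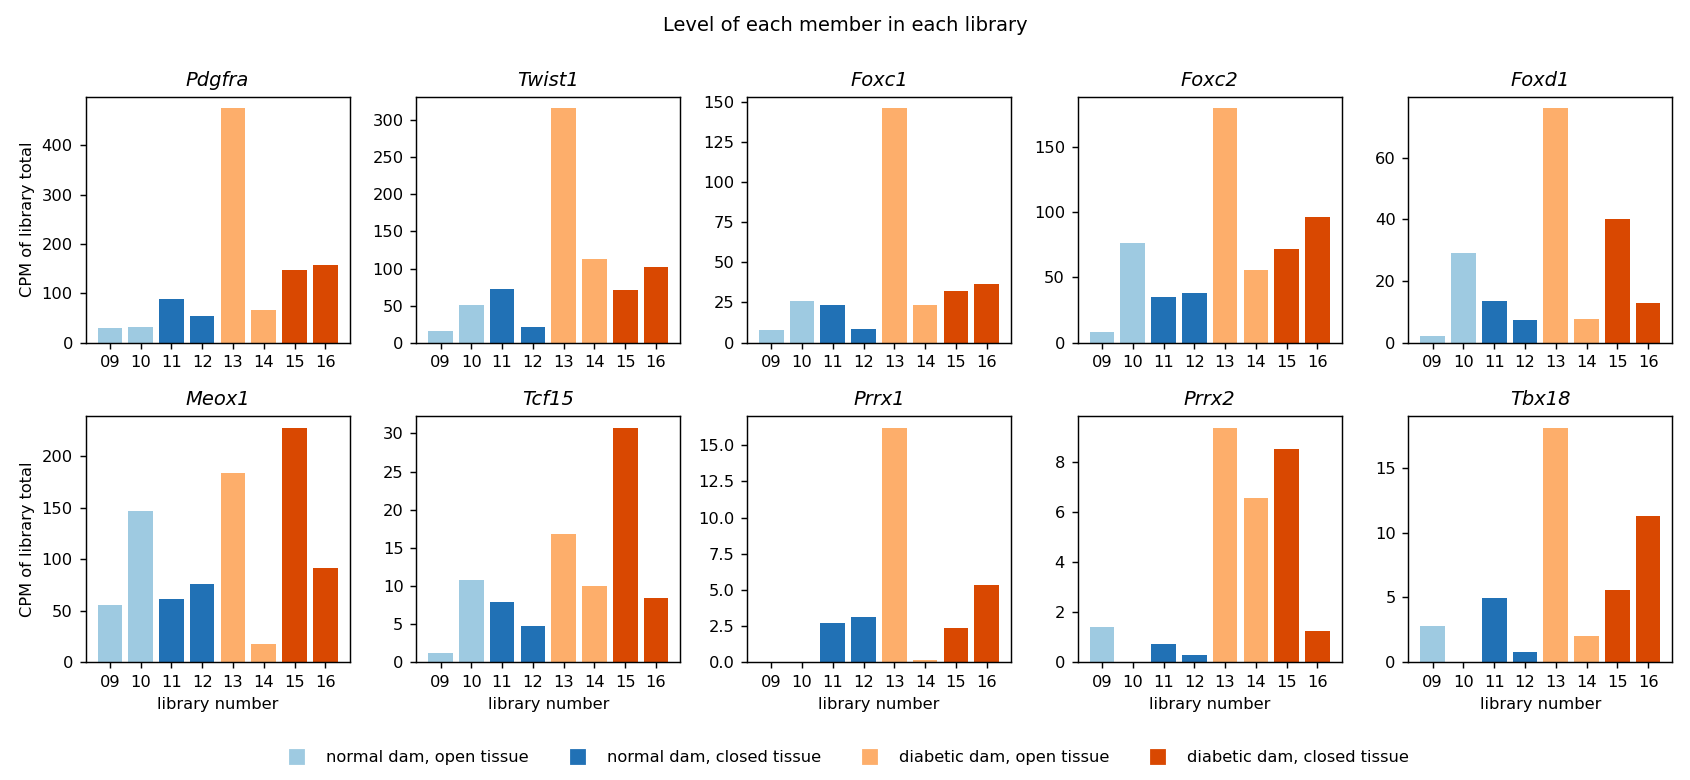
Level of each of the 10 genes in each library, in CPM of the library total, with 1 bar per library, coloured by dam and region, on linear axes that start at 0 and differ in height. Library 13 holds the highest bar for 8 of the 10 genes, and library 15 for Meox1 and Tcf15.

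Library 13 had the highest level of all 8 libraries for 8 of the 10 genes, a position it held for 16.9% of all genes tested. Library 15 was highest for the other two, Meox1 and Tcf15, against 8.98% of all genes tested. At the low end, normal open library 09 alone was lowest for 6 of the 10 genes, against 8.07% of all genes tested. Library 10 was lowest for Prrx2 and Tbx18, against 16.8% of all genes tested, and library 14 was lowest for Meox1, against 13% of all genes tested. Prrx1 was at 0 in both libraries 09 and 10.

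Pdgfra encodes the alpha receptor for platelet-derived growth factor, a cell-surface tyrosine kinase needed for somite patterning and for cranial mesenchyme. It was at 29.9 and 32.3 CPM in normal open tissue, 88.7 and 54.0 CPM in normal closed tissue, 475 and 66.0 CPM in diabetic open tissue, and 147 and 158 CPM in diabetic closed tissue. Of the 4 diabetic libraries, 3 were above all 4 normal libraries, and library 14 lay between the normal closed libraries. The mean was 212 ± 181 CPM (SD, n = 4) in diabetic dams and 51.2 ± 27.2 CPM (SD, n = 4) in normal dams, a ratio of 4.13 that became 2.41 without library 13. With edgeR's quasi-likelihood test over all 8 libraries and region in the model, Pdgfra was higher with diabetes by 2.09 on the log2 scale (SE 0.60, unadjusted p = 0.00512), and the adjusted p was 0.999. Without library 13 the edgeR log2 difference was 1.09 (unadjusted p = 0.00181, adjusted p = 1.00). DESeq2 gave Pdgfra an adjusted p of 0.0212 over all 8 libraries, and it was the 1 gene of the 10 that this tool called higher, against 0.263% of all genes tested.

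Pdgfra and Prrx2 were the 2 genes of the 10 with both diabetic libraries above both normal libraries in open and again in closed tissue, as were 4.46% of all genes tested. For Pdgfra the edgeR log2 difference was 3.11 in open tissue (SE 0.73, adjusted p = 0.587, DESeq2 adjusted p = 0.000901) and 1.08 in closed tissue (SE 0.69, edgeR adjusted p = 1.00). The test of the difference between those values, the interaction in edgeR, was -2.03 (SE 0.97, unadjusted p = 0.0631, adjusted p = 1.00). The promoter of Pdgfra is shown because this receptor had the smallest p of the 10 genes between dams. It is the 250 bases before the start of the gene, at chr5:75152001-75152250 on the plus strand of GRCm38.p6, from RefSeq, with a match to the E-box motif CANNTG in capitals.
Pdgfra promoter: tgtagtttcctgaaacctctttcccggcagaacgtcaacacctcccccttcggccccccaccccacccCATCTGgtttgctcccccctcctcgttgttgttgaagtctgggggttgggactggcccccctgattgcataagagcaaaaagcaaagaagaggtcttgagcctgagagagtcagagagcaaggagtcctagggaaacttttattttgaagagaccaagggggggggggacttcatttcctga
The E-box is the sequence bound by basic helix-loop-helix factors, the family of Twist1 and Tcf15. It was found in the promoters of 3 of the 7 genes that had one in the table (Pdgfra, Foxd1 and Tbx18) and in 66.2% of all 32851 promoters of that length, on either strand.

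Twist1 is a basic helix-loop-helix factor of mesenchyme, needed in the head mesenchyme for closure of the cranial neural tube. Its level was 15.01 and 50.5 CPM in normal open tissue, 71.8 and 21.5 CPM in normal closed tissue, 316 and 113 CPM in diabetic open tissue, and 71.0 and 102 CPM in diabetic closed tissue. Libraries 13, 14 and 16 were above all normal libraries, and library 15 was just below the highest of them. The means were 151 ± 112 CPM (SD, n = 4) with diabetes and 39.7 ± 26.4 CPM (SD, n = 4) without, a ratio of 3.80, or 2.41 without library 13. The edgeR log2 difference between dams was 1.80 (SE 0.58, unadjusted p = 0.0104, adjusted p = 0.999), and 1.27 without library 13 (unadjusted p = 0.0178). Twist1 was the 1 gene of the 10 for which both diabetic open libraries were above both diabetic closed libraries, a pattern seen in 15.3% of all genes tested. Within open tissue the edgeR log2 difference between dams was 2.73 (SE 0.74, adjusted p = 0.598, DESeq2 adjusted p = 0.0125), and within closed tissue it was 0.88, where the 2 dams' libraries overlapped.

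The promoter of Twist1 is shown beside that of Pdgfra because Twist1 came next between dams. The 250 bases before its start, at chr12:33957421-33957670 on the plus strand of GRCm38.p6 in RefSeq, held no E-box, and the capitals mark a match to the TATA box, TATAAA.
Twist1 promoter: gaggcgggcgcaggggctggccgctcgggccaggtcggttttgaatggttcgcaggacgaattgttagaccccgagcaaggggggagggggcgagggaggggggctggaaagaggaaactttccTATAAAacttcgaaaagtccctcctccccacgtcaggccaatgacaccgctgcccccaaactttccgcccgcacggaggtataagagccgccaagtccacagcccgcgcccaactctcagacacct
The TATA box was found in the promoter of 1 of the 7 genes and in 12.4% of all promoters on either strand. The homeodomain motif TAATTA was found in the promoter of Prrx1, against 4.84% of all promoters. The forkhead motif TAAACA (12% of all promoters) and the T-box motif GGTGTGA (3.33% of all promoters) had no match in these 7 windows, which says only that those letters do not occur there. CpG dinucleotides numbered 29 in the Foxc1 promoter, more than in 93.2% of all promoters, 18 for Twist1 and 4 for Pdgfra, against a median of 6. Foxc2, Meox1 and Tcf15 had no entry in the promoter table.

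Foxc1 and Foxc2 are related forkhead factors that act together in the formation of somites, head mesenchyme and blood vessels. Foxc1 was at 7.80 and 25.9 CPM in normal open, 23.2 and 8.74 CPM in normal closed, 146 and 23.5 CPM in diabetic open, and 31.9 and 36.6 CPM in diabetic closed tissue. Foxc2 was at 7.80 and 76.0 CPM, 34.7 and 38.1 CPM, 180 and 55.9 CPM, and 71.4 and 96.6 CPM in the same order. For Foxc1, libraries 13, 15 and 16 were above all normal libraries, and for Foxc2 only 13 and 16 were, since normal open library 10 was at 76.0 CPM. Both genes were higher in both diabetic closed libraries than in both normal closed ones. The edgeR log2 difference between dams was 1.72 for Foxc1 (SE 0.63, unadjusted p = 0.0197) and 1.35 for Foxc2 (SE 0.57, unadjusted p = 0.0377), with adjusted p = 0.999 for each. Without library 13 these differences were 0.87 and 0.91. The paralogs were not in a fixed proportion, as the ratio of Foxc2 to Foxc1 counts ran from 1.00 in library 09 to 4.36 in library 12.

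Foxd1, a forkhead factor found in mesoderm and later in the stroma of the kidney, was at 1.98 and 29.1 CPM in normal open and 13.4 and 7.26 CPM in normal closed tissue. In diabetic dams it was at 76.1 and 7.52 CPM in open and 40.3 and 12.98 CPM in closed tissue. All 4 groups overlapped, and libraries 13 and 15 alone were above every normal library. Between dams the edgeR log2 difference was 1.41 (SE 0.84, adjusted p = 0.999) with library 13 and 0.54 without it.

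Meox1 is a homeodomain factor of the somites, needed for the vertebrae, and Tcf15 (paraxis) is the basic helix-loop-helix factor that gives somites their epithelial form. Meox1 was at 55.3 and 147 CPM in normal open, 61.4 and 76.0 CPM in normal closed, 184 and 17.9 CPM in diabetic open, and 228 and 91.7 CPM in diabetic closed tissue. Tcf15 was at 1.19 and 10.8 CPM, 7.84 and 4.74 CPM, 16.8 and 9.91 CPM, and 30.7 and 8.37 CPM in that order. Both genes were higher in both diabetic closed libraries than in both normal closed ones, while in open tissue the dams overlapped. The diabetic mean of Meox1 was 130.3 ± 93.9 CPM (SD, n = 4) against 84.8 ± 42.1 CPM (SD, n = 4), the smallest ratio of the 10 genes at 1.54, and that of Tcf15 was 16.5 ± 10.2 CPM (SD, n = 4) against 6.13 ± 4.11 CPM (SD, n = 4). The edgeR log2 differences between dams were 0.60 (SE 0.62, adjusted p = 0.999) for Meox1 and 1.41 (SE 0.81, adjusted p = 0.999) for Tcf15. Leaving out library 13 brought Meox1 to 0.06 and left Tcf15 at 1.30.

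The 10 genes did not keep fixed proportions. In diabetic open library 14 Meox1 made up 5.92% of the summed level of the 10 genes and Twist1 37.4%, whereas the medians over the 8 libraries were 27.6% and 16.6%. Library 14 had the lowest Meox1 and the second highest Twist1 of all libraries, but Tcf15, the other somite factor, ranked 4 of 8 in it. The list of 27 other somite genes was mixed in library 14. Aldh1a2, which makes retinoic acid in somites, was at 0.597 CPM there and at 33.4 to 262 CPM elsewhere, and Meox2, the paralog of Meox1, was at 0. By contrast Fst was at 77.2 CPM, above all 4 normal libraries, Lfng was at 11.8 CPM, and Pax7 at 7.52 CPM was higher than in any other library. Meox2 was also at 0 in library 09 and at 9.33 to 128 CPM in the other 6. The ratio of Meox1 to Tcf15 counts was lowest in library 14, at 1.81, and highest in library 09, at 46.7. Meox2, Lfng and Pax7 were chosen for mention after their values were seen.

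Prrx1 and Prrx2, paired-related homeodomain factors of limb and craniofacial mesenchyme, and Tbx18, a T-box factor of the anterior part of each somite, were the 3 genes with the fewest counts. Prrx1 was at 0 and 0 CPM in normal open, 2.67 and 3.11 CPM in normal closed, 16.2 and 0.119 CPM in diabetic open, and 2.38 and 5.302 CPM in diabetic closed tissue. A count of 0 in libraries 09 and 10 allows up to 0.296 and 0.529 CPM, and the value of library 14 rests on 1 count. Between dams the edgeR log2 difference of Prrx1 was 3.67 with an SE of 2.73 (adjusted p = 0.999), and 1.13 without library 13. No fold is given for Prrx1 within open tissue or within normal dams.

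Prrx2 was at 1.38 and 0 CPM in normal open, 0.712 and 0.296 CPM in normal closed, 9.37 and 6.57 CPM in diabetic open, and 8.53 and 1.26 CPM in diabetic closed tissue. Libraries 13, 14 and 15 were above every normal library, and library 16 was below library 09 alone of them. The means were 6.43 ± 3.64 CPM (SD, n = 4) and 0.598 ± 0.599 CPM (SD, n = 4), the largest ratio of the 10 genes at 10.8, and 9.12 without library 13. The edgeR log2 difference between dams was 3.33 (SE 1.54, unadjusted p = 0.0532, adjusted p = 0.999), and 3.20 without library 13. These values rest on 0 to 14 counts in the normal and 9 to 156 counts in the diabetic libraries.

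Tbx18 was at 2.77 and 0 CPM in normal open, 4.99 and 0.740 CPM in normal closed, 18.1 and 2.03 CPM in diabetic open, and 5.55 and 11.3 CPM in diabetic closed tissue. Libraries 13, 15 and 16 were above all normal libraries, and library 14 was not. Between dams the edgeR log2 difference was 2.16 (SE 1.40, adjusted p = 0.999), and 1.15 without library 13. Tbx18 is also made by cells that cover the heart, and Gata4, a factor of heart and lateral plate mesoderm, was at 87.7 CPM in library 13, at 4.36 CPM in library 15 and at no more than 0.558 CPM in the others.

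**Figure D2:**
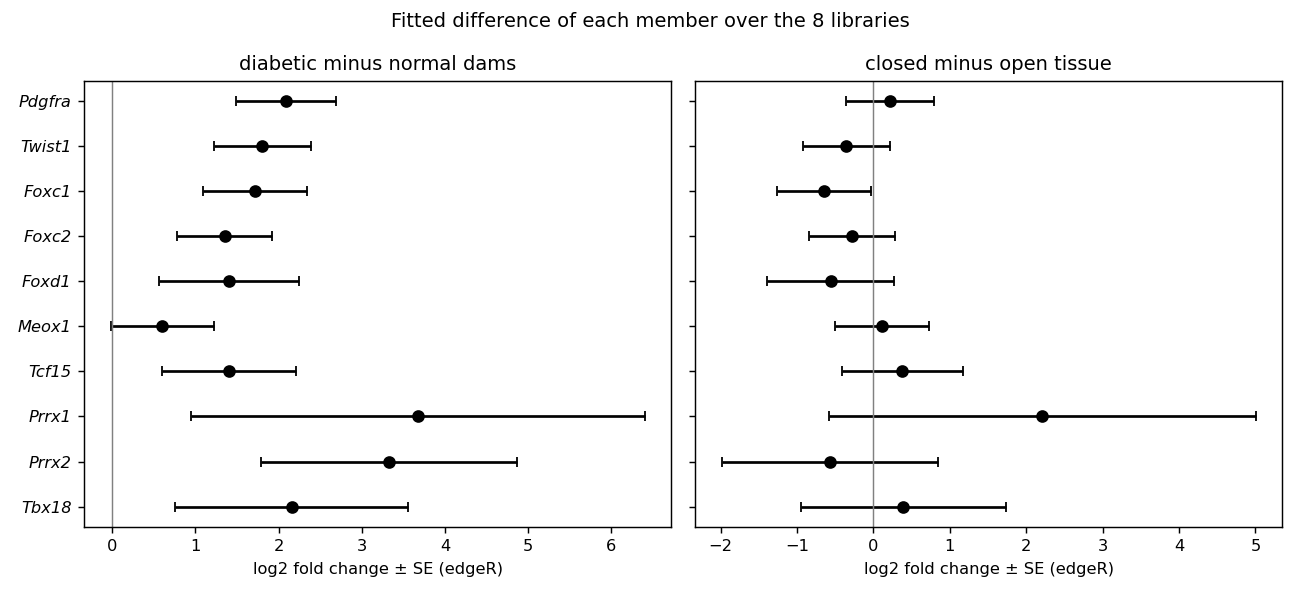
Log2 fold change ± SE of each gene from edgeR, for diabetic minus normal dams (left) and closed minus open tissue (right), with a line at 0. All 10 points lie above 0 for dam, from 0.60 for Meox1 to 3.67 for Prrx1, and 5 of 10 lie above 0 for region, where the widest bars are those of Prrx1, Prrx2 and Tbx18.

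Set side by side, all 10 genes had a log2 difference above 0 between dams, as did 52.7% of all genes tested, and 9 had one above 1, as did 16% of all genes tested. Their median was 1.76, beside 0.04 over all genes. An unadjusted edgeR p below 0.05 in the higher direction was reached by 4 of the 10 (Pdgfra, Twist1, Foxc1 and Foxc2) and by 2.97% of all genes tested. None of the 10 passed the adjusted threshold in edgeR, which called 0% of all genes in this comparison, where the smallest adjusted p was 0.938 and 536 genes had an unadjusted p below 0.05. DESeq2 called 37 genes between dams and limma-voom 0. No gene of the 10 had all 4 diabetic libraries above all 4 normal ones, a pattern held by 2.48% of all genes tested. Without library 13 all 10 log2 differences stayed above 0, as did 49.7% of all genes tested in that fit, with a median of 1.11 beside -0.003 over all genes.

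**Figure D3:**
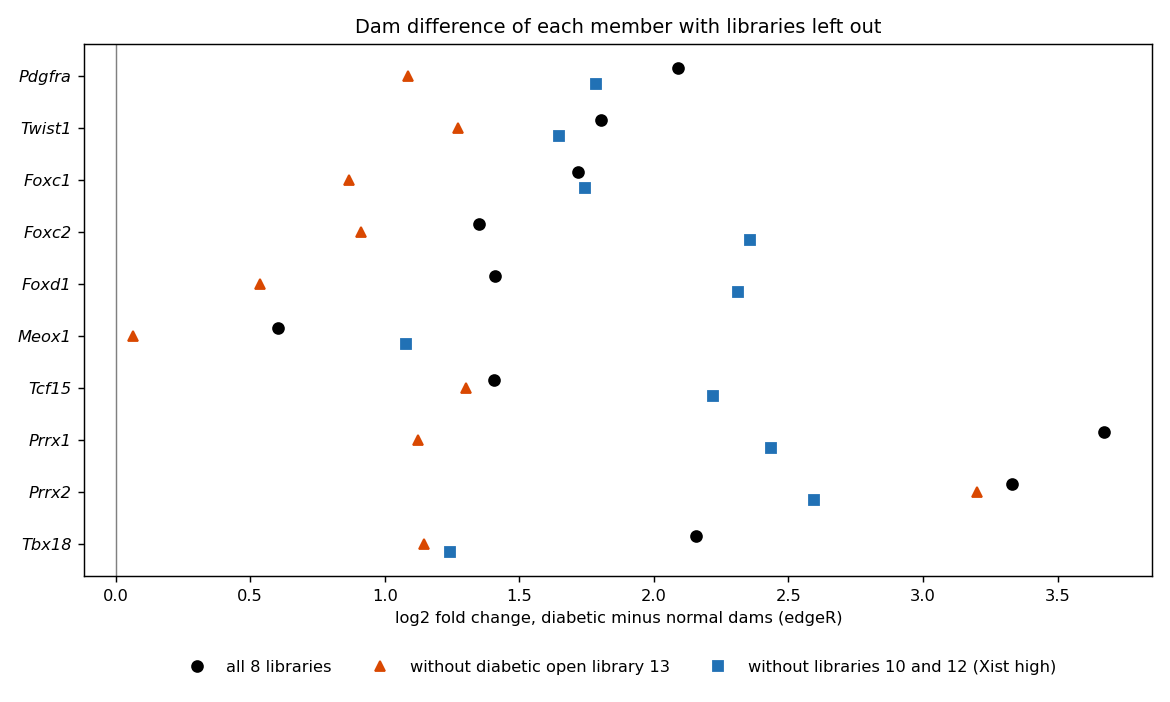
Log2 fold change of each gene between diabetic and normal dams from edgeR, with all 8 libraries (circles), without library 13 (triangles) and without libraries 10 and 12, in which Xist was high (squares). Every point lies above 0, and the triangle of Meox1 is nearest to it at 0.06.

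Libraries 10 and 12, the 2 with high Xist and both from normal dams, were also left out together. Library 09 alone then stood for normal open tissue and library 11 alone for normal closed tissue. The edgeR log2 differences between dams then ran from 1.08 for Meox1 to 2.60 for Prrx2, with adjusted p-values between 0.880 and 0.888. Foxc1 (1.72 to 1.74), Foxc2 (1.35 to 2.36), Foxd1 (1.41 to 2.31), Meox1 (0.60 to 1.08) and Tcf15 (1.41 to 2.22) were further from 0 without these libraries. Nearer to 0 were Pdgfra (2.09 to 1.79), Twist1 (1.80 to 1.65), Prrx1 (3.67 to 2.44), Prrx2 (3.33 to 2.60) and Tbx18 (2.16 to 1.24). The part of embryo sex in these levels was not tested.

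Within each region the dams were compared with 2 libraries against 2. In open tissue Pdgfra, Twist1, Prrx1 and Prrx2, 4 of the 10, had both diabetic libraries above both normal libraries, as did 17.4% of all genes tested. For Prrx1 that order is not settled, since library 13 held 270 counts but library 14 only 1 (0.119 CPM). Its counts of 0 in libraries 09 and 10 allow up to 0.296 and 0.529 CPM. DESeq2, run with library 13 included, called 2 of the 10 higher in open tissue, Pdgfra and Twist1, against 0.959% of all genes tested. The test of edgeR called 0 genes in that comparison, with 851 at an unadjusted p below 0.05, and 4 of the 10 (Pdgfra, Twist1, Foxc1 and Prrx1) were among those that were higher, against 3.96% of all genes tested. All 10 edgeR log2 differences were above 0 in open tissue, as were 51.1% of all genes tested, and their median was 2.54, beside 0.02 over all genes. That of Meox1 was only 0.008 (SE 0.855), and it was below 0 with DESeq2 (-0.002) and limma-voom (-0.24). The median became 0.62 when library 13 was left out and library 14 alone stood for its group. In that fit 8 of 10 were above 0, as were 41.1% of all genes tested. In closed tissue 7 of the 10 genes had both diabetic libraries above both normal ones, as did 18.7% of all genes tested. The other 3 were Twist1, Foxd1 and Prrx1. All 10 log2 differences were above 0 in closed tissue as well, as were 51.7% of all genes tested, and their median was 1.19, beside 0.03 over all genes. There edgeR called 0 genes (138 had an unadjusted p below 0.05), and DESeq2 called 2 (0.017% of all genes tested), neither of them among the 10.

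Between regions the 10 genes had no common direction. The closed minus open log2 difference in edgeR was below 0 for Foxc1 (-0.65, SE 0.62), Prrx2 (-0.57, SE 1.42), Foxd1 (-0.56, SE 0.83), Twist1 (-0.36, SE 0.57) and Foxc2 (-0.28, SE 0.56). It was above 0 for Meox1 (0.11, SE 0.62), Pdgfra (0.22, SE 0.58), Tcf15 (0.38, SE 0.79), Tbx18 (0.39, SE 1.34) and Prrx1 (2.21, SE 2.79). No gene of the 10 had an unadjusted edgeR p below 0.316, while 2.31% of all genes tested had one below 0.05 in the higher and 1.01% in the lower direction, and every SE except that of Foxc1 was larger than its value. Thus 5 of 10 were above 0, as were 55.5% of all genes tested, and none had all 4 libraries of one region above those of the other, a pattern held by 1.68% of all genes for closed and 1.07% for open tissue. The median was -0.09 with library 13 and 0.40 without it. Without library 13, 9 of 10 were above 0, as were 56.2% of all genes tested in that fit, and the median over all genes was 0.10.

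The summed level of the 10 genes was 421 ± 193 CPM (SD, n = 4) in closed and 559 ± 595 CPM (SD, n = 4) in open tissue. Without library 13 the open mean was 266 ± 128 CPM (SD, n = 3), and the closed mean was then 1.58 times the open one. In normal dams Pdgfra and Prrx1 were higher in both closed libraries than in both open ones, as were 14.9% of all genes tested, with an edgeR log2 difference of 1.24 (SE 0.69) for Pdgfra. In diabetic dams 2 of the 10, Meox1 and Tcf15, had a closed minus open difference above 0, as did 52.3% of all genes tested. Without library 13 it was 8 of 10, beside 58.1% of all genes tested in that fit. Between regions edgeR called 0 genes (391 had an unadjusted p below 0.05). By DESeq2 it was 9 genes, 0.0679% of all genes tested in the higher and 0.00849% in the lower direction, none of them among the 10.

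Other genes of the same tissues were taken from lists. Of 27 other genes of somites and presomitic mesoderm, 21 had a count in some library and 18 were tested. Between dams 14 of the 18 had a log2 difference above 0, with a median of 1.06, or 12 and 0.39 without library 13, and edgeR called 0 of them. Fst, which encodes follistatin, a secreted antagonist of activin, was at 28.5, 23.5, 31.7 and 32.3 CPM in the normal libraries 09 to 12 and at 125, 77.2, 118 and 54.7 CPM in the diabetic libraries 13 to 16. All 4 diabetic values of Fst were above all 4 normal values, and its log2 difference was 1.68 (SE 0.33, edgeR adjusted p = 0.938, DESeq2 adjusted p = 0.00601). Pax1, a sclerotome factor, was at 113 ± 99.8 CPM (SD, n = 4) in diabetic and 27.3 ± 31.2 CPM (SD, n = 4) in normal dams, and Dll1, a Notch ligand of presomitic mesoderm, at 46.2 ± 28.7 CPM (SD, n = 4) and 59.2 ± 26.7 CPM (SD, n = 4). Msgn1, Ripply1, Ripply2, Hes7, Nkx3-2 and Lbx1 were at 0 in all 8 libraries. Between regions 15 of the 18 had a closed minus open difference above 0, with a median of 0.97.

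Of 30 other mesenchyme genes, 29 had a count and 22 were tested. Between dams 20 of the 22 had a log2 difference above 0, with a median of 1.17, and without library 13, when 24 were tested, 17 did, with a median of 0.20. The summed level of the 30 genes was 1542 CPM in library 13 and 395 to 633 CPM in the other 7. Col1a2, a chain of type I collagen, was at 195 CPM in library 13 and at 8.29 to 60.9 CPM elsewhere. Meis2 (276 ± 85.4 CPM in diabetic and 212 ± 45.8 CPM in normal dams, SD, n = 4 each) and Fn1, which encodes fibronectin (114 ± 49.2 CPM and 83.3 ± 29.3 CPM, SD, n = 4 each), overlapped between dams. Zeb2, a repressor of epithelial genes, was at 63.8 ± 15.4 CPM (SD, n = 4) in diabetic and 79.2 ± 11.7 CPM (SD, n = 4) in normal dams, with a log2 difference of -0.32 (SE 0.26, edgeR adjusted p = 0.999), and its lowest level was 48.5 CPM in library 13. Between regions 21 of 22 had a closed minus open difference below 0, with a median of -0.59, and without library 13 the median was 0.15 with 13 of 24 above 0. Msc was at 0 in all libraries.

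Partners of Pdgfra, Twist1 and Tcf15 were read next. Of the other genes of the platelet-derived growth factor pathway, 4 were tested and 3 had a log2 difference above 0 between dams. Pdgfrb, the second receptor, was at 0, 21.2, 3.92 and 12.4 CPM in libraries 09 to 12 and at 37.7, 0, 7.54 and 20.9 CPM in libraries 13 to 16, so its groups overlapped. Pdgfd was at 0 throughout. Another list held 10 genes of the basic helix-loop-helix network: the E proteins Tcf3, Tcf4 and Tcf12, which pair with Twist1 and Tcf15, the Id proteins Id1 to Id4, which block such pairs, and Hand1, Hand2 and Twist2. Of the 6 tested, Tcf4 (0.39), Id1 (0.93) and Twist2 (0.58) had a log2 difference above 0 and Tcf3, Tcf12 and Id3 one below, with a median of 0.15, and Id4 was at 0 throughout. Their summed level, led by Id3, Tcf4, Tcf3 and Tcf12, ran from 792 to 1632 CPM and was lowest in library 14.

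Genes that lie beside members on the chromosome in the GRCm38.p6 gene table were looked at as well. Kit, a tyrosine kinase receptor of melanocyte and germ cell precursors and the next coding gene to Pdgfra, was at 65.5 to 92.8 CPM in diabetic and 78.7 to 131 CPM in normal libraries. Its log2 difference between dams was -0.41 (SE 0.27, edgeR adjusted p = 0.999), against 2.09 for Pdgfra. Kdr, beyond Kit, had 1 count, in library 11. Foxf2, next to Foxc1, was at 1.62 and 3.22 CPM in libraries 13 and 14 alone, and Foxl1, next to Foxc2, at 5.22, 3.77 and 0.698 CPM in libraries 13, 15 and 16 alone. Foxq1 and Foxf1a were at 0 in all libraries.

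**Figure D4:**
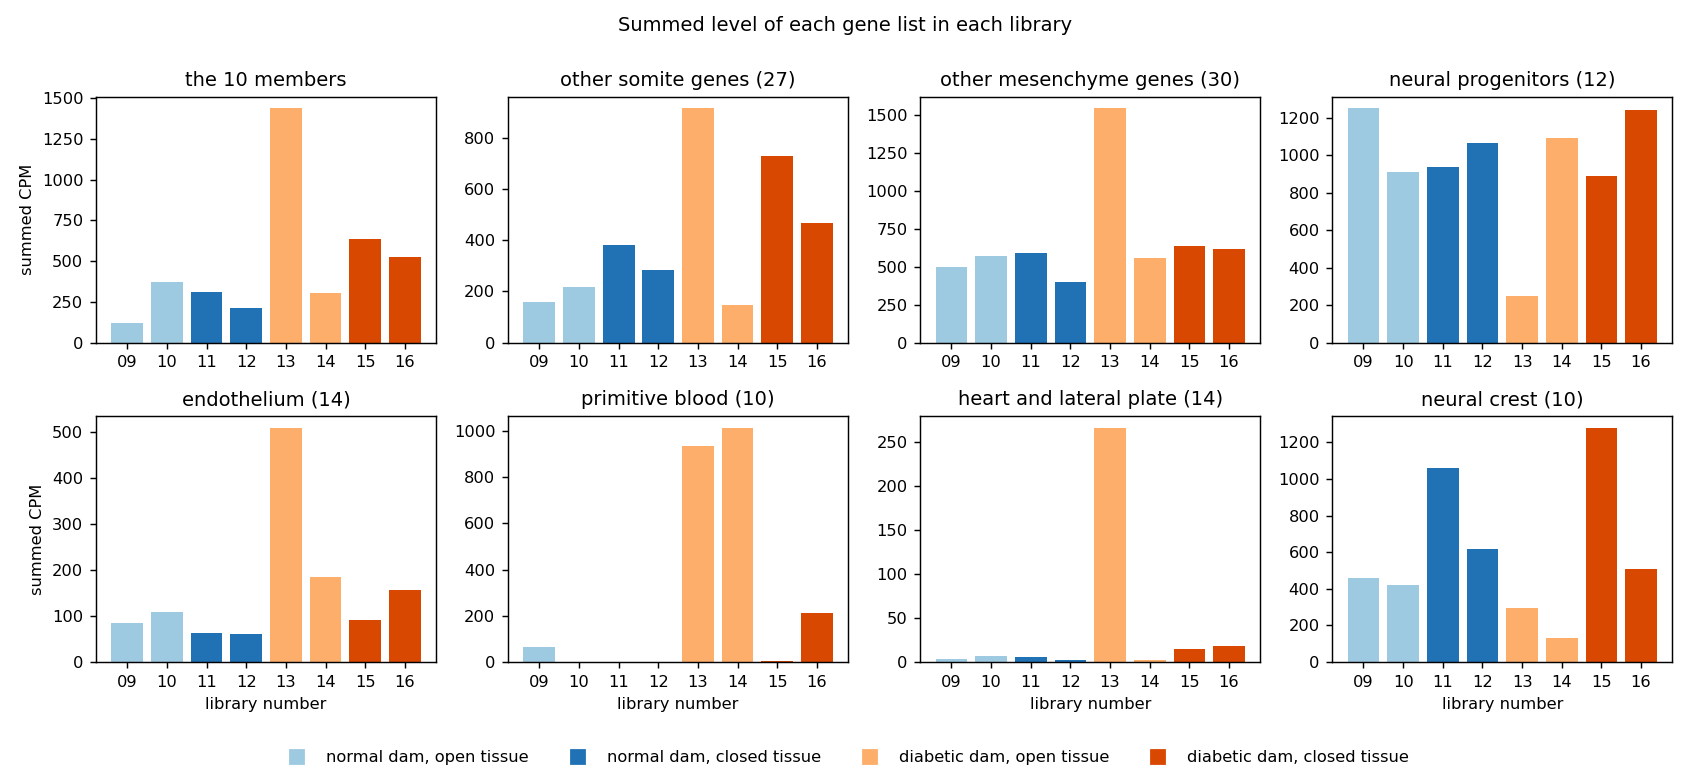
Summed level of each gene list in each library, in CPM of the library total, for the 10 genes and 7 lists of other genes, with the number of genes in parentheses, on linear axes that start at 0 and differ in height. The 10 genes, other somite genes, other mesenchyme genes, endothelium and heart and lateral plate are highest in library 13, where neural progenitors are lowest.

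Marker lists of neighbouring tissues moved with the 10 genes to different degrees. Neural crest markers summed to 1061 and 1280 CPM in libraries 11 and 15, 294 CPM in library 13 and 131 CPM in library 14. The order of that sum was not that of the 10 genes. Msx1 made up most of it, at 791, 1015, 190 and 67.7 CPM in libraries 11, 15, 13 and 14. By contrast Snai2 and Msx2 were highest in library 13, at 56.6 and 16.1 CPM, with at most 8.90 and 10.3 CPM elsewhere. Sox9 and Pax3 were lowest in library 13, at 17.95 and 7.745 CPM. The 7 notochord markers summed to 12.2 CPM in library 13 and to 39.1 to 106 CPM elsewhere, with Noto at 0 throughout. The 10 surface ectoderm markers summed to 340 CPM in library 13 and to 62.2 to 274 CPM elsewhere. For the 10 endoderm markers it was 56.7 CPM in library 13 and 16.5 to 51.0 CPM elsewhere. Intermediate mesoderm markers were at 26.7 CPM in library 13, 1.26 CPM in library 16 and 0 elsewhere, with Pax2 and Pax8 at 0 throughout. Tek, an endothelial receptor, was at 106 CPM in library 13, 30.1 CPM in library 14, 14.1 CPM in library 16 and at most 3.37 CPM in the other 5, and Hba-x, an embryonic globin, at 891, 994 and 203 CPM in libraries 13, 14 and 16. In the closed group the 10 genes summed to 636 and 525 CPM in libraries 15 and 16 against 309 and 214 CPM in libraries 11 and 12. Neural markers were at 890 and 1240 CPM against 937 and 1065 CPM in the same order. Among the lists higher in both diabetic closed libraries were other somite genes (731 and 467 against 381 and 285 CPM) and endothelium (90.7 and 156 against 63.2 and 60.4 CPM). Primitive blood was higher in both as well (5.36 and 213 against 1.78 and 0.592 CPM). Notochord was lower in both (64.7 and 67.7 against 85.5 and 87.7 CPM), and neural crest and surface ectoderm overlapped. The part of these other tissues in the levels of the 10 genes was not tested.

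The 10 genes varied together over the 8 libraries, as a description of these libraries only. Over the 45 pairs of genes, Pearson's r of log2 CPM was above 0 for all 45, with a median of 0.61 and a range from 0.01 (Meox1 with Prrx2) to 0.95 (Twist1 with Foxc1). Without library 13 it was above 0 for 41 pairs, with a median of 0.42, and it was 0.92 for Twist1 with Foxc1 and 0.92 for Foxd1 with Tcf15. All points share the depth and the tissue mixture of their library. A score per library, the mean over the 10 genes of log2 CPM centred per gene, was -1.68, -0.89, -0.04 and -0.83 in libraries 09 to 12 and 2.14, -0.36, 1.04 and 0.62 in libraries 13 to 16.

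The genes outside the 10 whose log2 CPM followed that score most closely were sought among 6936 genes with a mean of at least 10 CPM, and the 8 highest are named. They were H19 (r = 0.98), Traf3ip2 (0.96), Col3a1 (0.95), Col1a2 (0.93), Ssfa2 (0.93), Igf2 (0.93), Arg1 (0.93) and Sema6a (0.93), which are extremes of a large search and carry no test. H19, an imprinted non-coding RNA abundant in embryonic mesoderm, was at 122, 265, 375 and 208 CPM in libraries 09 to 12 and at 1767, 300, 515 and 498 CPM in libraries 13 to 16. Igf2, the imprinted growth factor gene beside H19, was at 78.5, 167, 191 and 125 CPM in the normal and at 1912, 201, 249 and 353 CPM in the diabetic libraries. For both, library 13 was highest and library 09 lowest, as for the sum of the 10 genes. Without library 13, r was 0.97 for H19 and 0.92 for Igf2, and H19 and Traf3ip2 were still the highest 2 of the search.

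**Figure D5:**
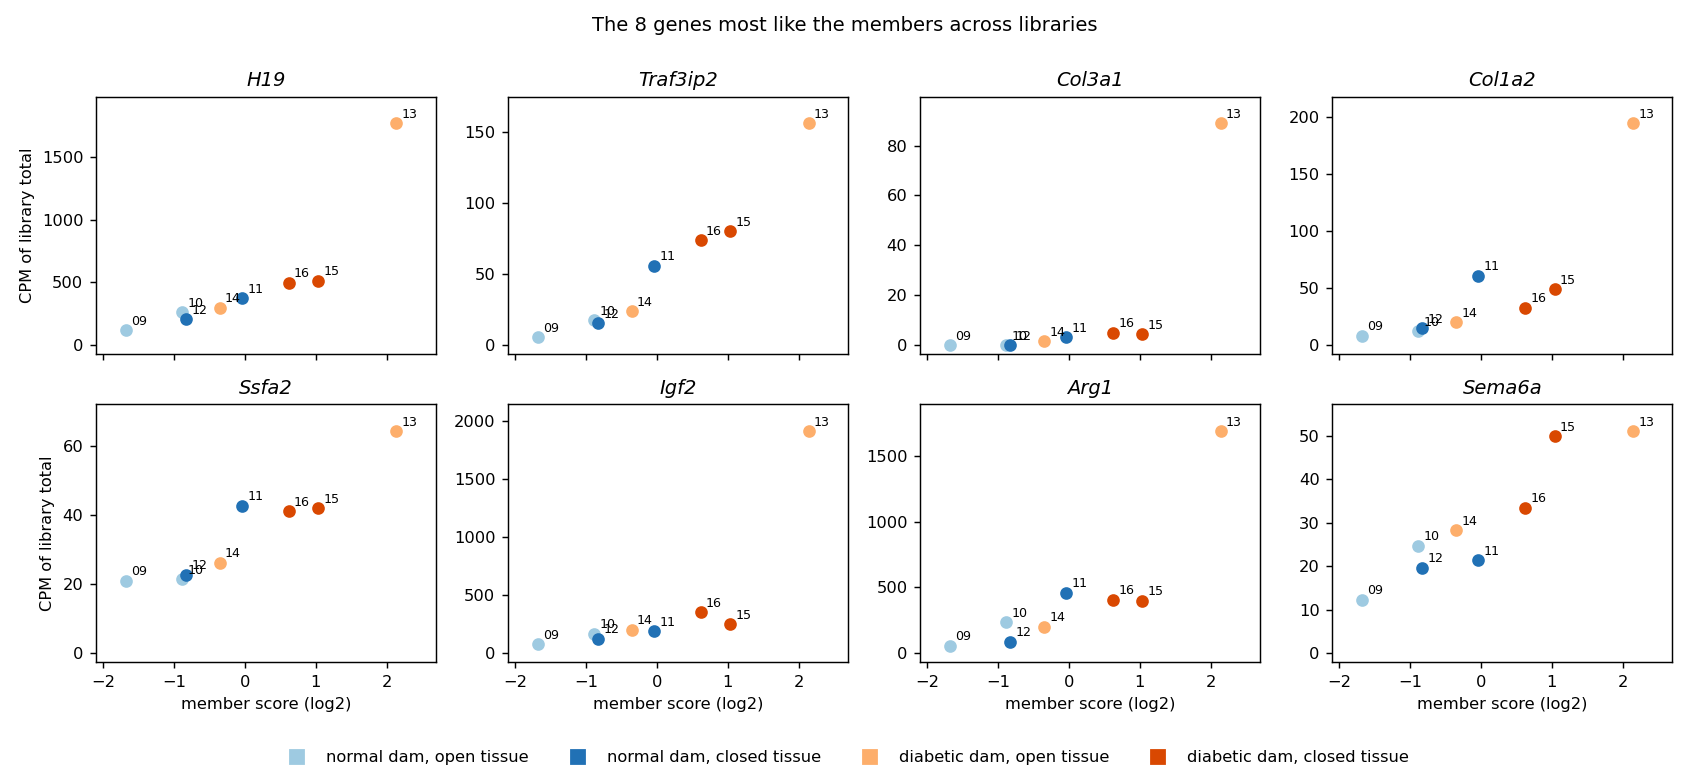
Level in CPM of the 8 genes most like the 10 genes (y axis, linear) against the score of the 10 genes in each library (x axis, mean of centred log2 CPM), with 1 point per library labelled by its number. Library 13 is at the upper right in every panel, at a score of 2.14, and library 09 at the left, at -1.68.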

How the data were processed

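Tag counts per gene, as deposited in 1 file per library, are the authors' whole-number counts from SOLiD SAGE libraries made from 7 ng of total RNA, per the labels' protocols. Per the submitters' processing notes, the build was mm9. The sources used here do not give the aligner, the annotation, the rule for tags with several matches or whether strand was used, so overlapping genes cannot be told apart.

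Levels are CPM, counts scaled to a library total of 1000000. Counts were tested in R 4.3.3 with edgeR 4.0.16 (quasi-likelihood F test, TMM factors 0.976 to 1.04, genes kept by filterByExpr on the 4 groups, Benjamini-Hochberg adjusted p below 0.05 over 11779 genes). Dam and region were fitted in an additive model, and the differences within a region or dam and the interaction in a model of the 4 groups. DESeq2 1.42.0, limma-voom (limma 3.58.1), no filter and left-out libraries were alternatives. The scripts were tested on simulated data. Each SE was derived from the F statistic and the log2 difference. A count of 0 allows up to 3 counts, and such limits cover counting error only, since tags carry no molecular identifiers.

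Members and lists were chosen with earlier results of these data known. Named are all 10 members, all chromosome neighbours, the 8 genes most like the members, and, from the other somite, mesenchyme and partner lists, the genes called by edgeR or else up to 4 with the highest mean CPM, with genes at 0 throughout and Sox2, Tek, Hba-x and Gata4 by library. The marker lists of other tissues are mostly given by their sums in place of their leading genes, a departure from that rule. Snai2 and Msx2 of the neural crest list were named after their values were seen. Foxf1 is listed in the files as Foxf1a. Promoters came from RefSeq (GRCm38.p6) for 7 of 10 members. Leaving out library 13 for the summed level and the lists was added after the data were seen.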

Additional observations from a re-analysis of the deposited data

Results flagged for a closer look

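In 7 of 40 groups of 4 libraries (4 groups for each of the 10 genes, by dam and by region), 1 library lay far from the other 3 relative to the range of its group. A chance rate of about 1 such group in 20 assumes draws from a single bell-shaped distribution. Here levels were in CPM, each group pooled both regions or both dams, and the groups share libraries. That rate therefore cannot be applied, and the flagged groups are given as a description only. Diabetic open library 13 was the high one in 5 of them. Among the open libraries it held Pdgfra at 475 CPM, with the next library at 66.0 CPM, Foxc1 at 146 CPM with the next at 25.9 CPM, Prrx1 at 16.2 CPM with the next at 0.119 CPM, and Tbx18 at 18.1 CPM with the next at 2.77 CPM. Among the diabetic libraries it held Foxc1 at 146 CPM, with the next at 36.6 CPM. Diabetic closed library 15 was the high one among the closed libraries for Tcf15, at 30.7 CPM with the next at 8.37 CPM, and for Prrx2, at 8.53 CPM with the next at 1.26 CPM.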

How the results depend on the processing

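The log2 difference between dams stayed above 0 for each of the 10 genes under all 14 alternatives, and its median over them was 1.11 to 2.30 when 1 library was left out at a time. Between regions Prrx1 kept its direction under all 14 alternatives (0.44 to 6.02, with SE 2.79 in all 8 libraries). The directions of the other 9 genes reversed under at least 1 alternative, and the cause was not tested. The region median over the 10 genes, -0.09, was 0.047 with limma-voom, 0.25 without libraries 10 and 12, and -0.42 to 0.40 with 1 library left out. With 1 library left out, the region log2 difference ran from -0.11 to 1.24 for Pdgfra, -0.97 to 0.19 for Twist1, -1.11 to 0.21 for Foxc1, -0.66 to 0.46 for Foxc2, -0.95 to 0.36 for Foxd1, -0.36 to 0.65 for Meox1, -0.16 to 1.23 for Tcf15, -1.27 to 0.46 for Prrx2 and -0.47 to 1.42 for Tbx18. It was -0.036 for Pdgfra, 0.35 for Foxc2 and 0.37 for Foxd1 without libraries 10 and 12, and 0.0296 for Foxc2 with limma-voom. Genes called numbered 0 in edgeR in all 7 comparisons. In the order dam, region, dam in open, dam in closed, region in normal, region in diabetic and interaction, DESeq2 called 37, 9, 199, 2, 33, 47 and 22, and edgeR without a filter on low counts called 89, 29, 138, 11, 22, 41 and 23. The latter fit tested all 15162 genes with a count in any library. Its 89 calls for dam included Pdgfra, Twist1, Foxc1 and Foxc2, and its 138 calls for dam in open included Pdgfra, Twist1 and Foxc1. Leaving out 1 library gave 0 to 2, 0 to 3, 0 to 61, 0 to 3, 0 to 18, 0 to 21 and 0 to 9 calls in edgeR. Every such fit left 1 library in a group, so calls of the 10 genes in these fits are not given. Limma-voom called 1 gene each for dam in open, region in diabetic and interaction, and 0 for the others. A group left with 1 library was assumed to vary like the others. Low counts limit Prrx1, Prrx2 and Tbx18. No paired analysis was possible because the labels do not state whether the regions were cut from shared embryos.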
